A study of Sus scrofa with 8 samples.

Results

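WNT ligands, the Frizzled receptors with their LRP5 and LRP6 co-receptors, and the secreted antagonists of the pathway were followed in porcine induced pluripotent stem cells (piPSCs) with and without overexpressed IRF-1. They were chosen by symbol from the count table, which holds 24358 genes, and number 40. These are 18 ligands (each named WNT gene in the table), 12 receptors (FZD1 to FZD10, LRP5 and LRP6) and 10 antagonists (SFRP1, SFRP2, SFRP4, SFRP5, FRZB, DKK1, DKK2, DKK3, DKK4 and WIF1). WNT4 was not analysed here.

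RNA-seq had been done on 4 libraries, 2 of IRF-1 overexpressing cells (replicates 1 and 3) and 2 of control cells (replicates 6 and 8). It was meant to show how IRF-1, a transcription factor of the interferon response, alters the transcriptome of these cells. The 4 ChIP-seq samples of the series were not analysed here.

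By the study's methods both groups were DOX-hLIF-2i piPSCs of domestic pig, made from embryonic fibroblasts (PEFs) with an OCT4-tdTomato reporter by lentiviral FUW-OSKM and FUW-M2rtTA, so that doxycycline drives the reprogramming factors. The overexpressing cells had received PB-CAG-IRF1-Flag, in which the CAG promoter drives Flag-tagged IRF1, together with the transposase plasmid PCAGPBase. The control cells had received PB-CAG-Flag. Puromycin selection followed in both, and no source used here says whether a group is a clone or a pool. The study's methods give a medium with human and porcine LIF, doxycycline, PD0325901 and CHIR99021, whereas the growth label names an LCDMV system and the treatment label PC-iPS cells, and these differences in cell name and medium were not resolved. CHIR99021 inhibits GSK3, the kinase that marks β-catenin for breakdown, and where it was present it acted in both groups, downstream of the receptors. The study reports that these cells depend on the doxycycline-driven factors for self-renewal, and that their pluripotent state leaves room for improvement. Feeder cells had been removed before RNA extraction by letting them attach.

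The genotype label reads overexpression for all 4 libraries, and the groups used here follow the replicate numbers as the study's own map of its samples assigns them. IRF1 (ENSSSCG00000014277, chromosome 2, 134776124 to 134783819) was therefore examined first. It had counts of 8206 and 5485 with overexpressed IRF-1, 55 and 56 without, and its log2 fold change was 6.46 (SE 0.21, Benjamini-Hochberg adjusted p = 3.65e-05, edgeR quasi-likelihood test). Both libraries taken as overexpressing stood far above both controls, so the label of replicates 6 and 8 goes against their IRF1 counts. The counts do not separate the introduced IRF1 from the endogenous gene.

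Reads counted on genes numbered 24923319 and 20858333 with overexpressed IRF-1, 15925429 and 17097669 without. Mitochondrial genes took 8.62% and 7.57% of them with overexpressed IRF-1, 6.29% and 6.68% without, so this share also separates the groups. At these depths 3 counts, used as the floor of a library, correspond to between 0.120 and 0.188 CPM (counts scaled to 1e6 per library). CPM values, which use the library size times its TMM factor, serve to compare libraries. Levels of different genes were compared in TPM, that is counts divided by the exon length given in the table and scaled to a fixed total per library. In each pair of values below, the overexpressing libraries are given as replicate 1 and then 3, and the controls as replicate 6 and then 8. Nothing in the labels says that the replicates came from separate cultures, so p-values measure only the spread between these samples. With 2 libraries against 2, the smallest two-sided p of an exact permutation test is 0.333, and edgeR goes lower by sharing information on spread across genes. The share of all genes whose groups did not overlap was not counted, so statements on overlap below only describe single genes.

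WNT proteins are lipid-modified secreted ligands that bind Frizzled receptors. With LRP5 or LRP6, this stops the breakdown of β-catenin, which then acts with TCF and LEF factors on target genes, while other WNT signals act through Frizzled and partners such as ROR2 on cell polarity and movement without β-catenin. SFRP proteins, FRZB and WIF1 bind the ligands outside the cell, and DKK1 binds LRP5 and LRP6, and in pluripotent stem cells the pathway is known for its part in self-renewal and in the onset of differentiation.

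Summed over their genes, ligand and receptor transcripts were lower in both IRF-1 overexpressing libraries than in both controls, while single genes of each class differed in whether they were called. Of the antagonists, SFRP2, FRZB and WIF1 were called higher. A call required adjusted p < 0.05 together with a log2 fold change (fold change always meaning overexpressing over control, with its standard error, SE) of 1 or more in either direction. Of 13250 genes tested, 8.61% were called higher and 10.6% lower, with a median log2 fold change of -0.00. Among the 40 genes, 33 were tested, 4 were called higher and 11 lower. These counts are a description, because 12 of the 33 passed the filter on low counts (at least 0.527 CPM in 2 libraries) through a single group, 7 through the controls and 5 through the overexpressing cells, and were thus tested only because they were high enough there. Among them are 5 of the 7 ligands called lower (WNT1, WNT3, WNT6, WNT7B and WNT9A, through the controls), and WNT2 and WIF1, called higher (through the overexpressing cells). Of the 21 genes that passed through both groups, 2 were called higher (SFRP2 and FRZB) and 6 lower (WNT5B, WNT10B, FZD2, FZD4, FZD7 and FZD9). With glmTreat, which tests against the fold limit itself and called 611 genes higher and 603 lower, the calls of WNT3, WNT5B, FZD2, FZD4, FZD7, FZD9, FRZB and WIF1 ended, as did those of the pathway genes BCL9L, LEF1, MYC, NKD1, NOTUM, PRICKLE1, PRICKLE2, PTK7, SP5, TCF7 and WLS below. Fewer genes were called lower when overexpressing replicate 1 was omitted, both among the 40 and over all genes tested. With a filter of 1 CPM in 2 libraries, WNT1, WNT2B, WNT3A, FZD8, SFRP5 and WIF1 were no longer tested. Of these, WNT1 and WIF1 had been called. Where a gene was not called, the test does not show that its level was the same.

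**Figure D1:**
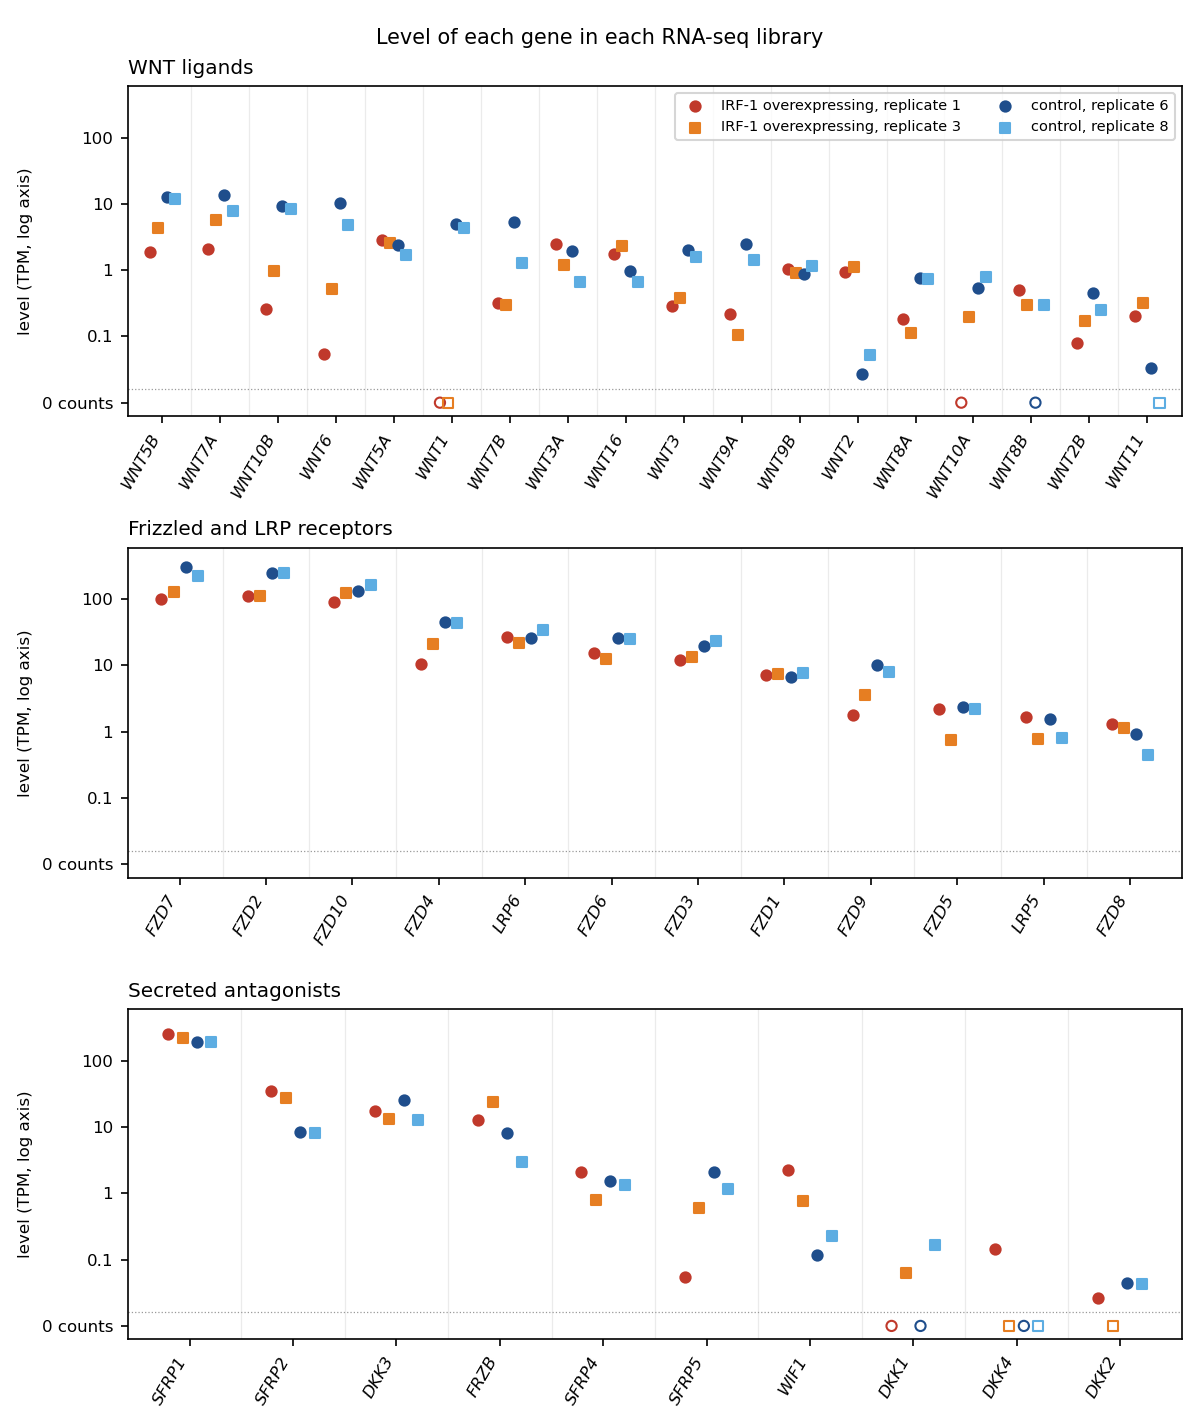
Level of each of the 40 genes in each of the 4 RNA-seq libraries, in TPM on a log axis, by role and ordered by the mean over the libraries. Filled points are the libraries and open points mark libraries with 0 counts, such as both overexpressing libraries for WNT1. The 3 most abundant receptors lie between 91.2 and 306 TPM, whereas no ligand exceeds 13.6 TPM.

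Ligands were the least abundant class. Summed over the 18 genes, their level was 15.1 and 21.4 TPM with overexpressed IRF-1, 68.1 and 47.6 TPM without. Both overexpressing libraries lay below both controls, and the ratio of the mean sums was 0.315. For comparison, the summed level of the receptors was 380.5 and 446 TPM with overexpressed IRF-1, 825 and 779 TPM without, so that receptor transcripts outnumbered ligand transcripts in every library on this scale. Of the 14 ligands tested, 1 was called higher and 7 lower, against 8.61% and 10.6% of all genes tested. Of the 14, 9 had passed the filter through a single group.

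The ligands with the highest level differed between the groups in order. In the control libraries, WNT7A, WNT5B, WNT10B and WNT6 took the first 4 places. In the overexpressing libraries, WNT5A led in replicate 1 and WNT7A in replicate 3.

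WNT10B and WNT1 lie side by side on chromosome 5 and were lower in the overexpressing cells. WNT10B (ENSSSCG00000000182, chromosome 5, 14995704 to 15013613), a ligand of the β-catenin branch, had counts of 18 and 54 with overexpressed IRF-1, 376 and 354 without. All overexpressing counts were below all control counts, although replicate 3 was higher than replicate 1. Its log2 fold change was -3.76 (SE 0.50, Benjamini-Hochberg adjusted p = 0.00162, edgeR quasi-likelihood test), and it moved to -3.08 when overexpressing replicate 1 was omitted and to -4.92 when replicate 3 was. WNT1 (ENSSSCG00000000183, chromosome 5, 15012893 to 15014019), the founding member of the family, had counts of 0 and 0 with overexpressed IRF-1, 19 and 17 without. It was not detectable in the overexpressing cells at this depth, and against a floor of 3 counts per library its level there was at least 8.28-fold lower (adjusted p = 0.00392 in the same edgeR test). Exons of these genes share 215 bases on opposite strands, which is 34.6% of the 621 exon bases that the table gives WNT1. The strand setting of the counting is not given in the sources used here, so reads in that stretch cannot be assigned with certainty.

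WNT6 (ENSSSCG00000036932, chromosome 15, 120901283 to 120917398) had counts of 1 and 8 with overexpressed IRF-1, 114 and 55 without. Its log2 fold change was -4.65 (SE 0.80, Benjamini-Hochberg adjusted p = 0.00472, edgeR quasi-likelihood test). Single libraries carried much of this size, with -3.72 without overexpressing replicate 1, -6.80 without overexpressing replicate 3 and -3.92 without control replicate 6, and the call was kept each time. WNT9A (ENSSSCG00000024671, chromosome 2, 51102239 to 51128362) had counts of 10 and 4 with overexpressed IRF-1, 69 and 41 without, a log2 fold change of -3.45 (SE 0.58, adjusted p = 0.00437, edgeR quasi-likelihood test). This became -4.07 without overexpressing replicate 1. For both genes the counts of the groups did not overlap, and the highest overexpressing value was 10 counts.

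WNT7B (ENSSSCG00000027365, chromosome 5, 3521695 to 3572379) had counts of 13 and 10 with overexpressed IRF-1, 131 and 33 without. The groups did not overlap, but control replicate 6 stood well above control replicate 8. For WNT7B the log2 fold change was -3.33 (SE 0.74, Benjamini-Hochberg adjusted p = 0.0131, edgeR quasi-likelihood test). Without control replicate 6 it was -1.90 and no longer called (adjusted p = 0.0565, range over all alternatives 5.88e-07 to 0.0565, edgeR), and without control replicate 8 it was -4.03. WNT3 (ENSSSCG00000017317, chromosome 12, 17628620 to 17708903), a ligand of the β-catenin branch known for primitive streak formation, had counts of 11 and 12 with overexpressed IRF-1, 47 and 37 without. Its groups did not overlap, and its log2 fold change was -2.32 (SE 0.48, adjusted p = 0.00958, edgeR quasi-likelihood test). Without overexpressing replicate 1 the value was -2.12 and the call was lost (adjusted p = 0.0860, range over all alternatives 0.000680 to 0.0860, edgeR). WNT3 shares 149 exon bases with NSF on the opposite strand.

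WNT5B (ENSSSCG00000000759, chromosome 5, 68627338 to 68731931), which acts mainly without β-catenin, was by mean TPM the most abundant ligand. It had counts of 42 and 79 with overexpressed IRF-1, 168 and 166 without, or 1.88 and 4.27 TPM with overexpressed IRF-1, 12.5 and 11.9 TPM without. The control libraries were close to each other and above both overexpressing libraries, of which replicate 1 was the lower. For WNT5B the log2 fold change was -1.89 (SE 0.41, Benjamini-Hochberg adjusted p = 0.0118, edgeR quasi-likelihood test). It was -1.40 and not called without overexpressing replicate 1 (adjusted p = 0.0527, range over all alternatives 1.57e-05 to 0.0905, edgeR), and -2.57 without overexpressing replicate 3. Exons of WNT5B share 248 bases with an unnamed gene on the same strand.

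WNT7A (ENSSSCG00000039010, chromosome 13, 70538903 to 70603020) came next in abundance, with 2.08 and 5.66 TPM with overexpressed IRF-1, 13.6 and 7.85 TPM without. Its highest overexpressing value, 5.66 TPM, lay under its lowest control value, 7.85 TPM. The log2 fold change of -1.39 (SE 0.49, Benjamini-Hochberg adjusted p = 0.0690, edgeR quasi-likelihood test) did not pass the threshold. It passed with DESeq2 (adjusted p = 0.0144), with limma-voom (adjusted p = 0.0490) and with no filter (adjusted p = 0.000493), within a range of 0.000493 to 0.532 over all alternatives. It also passed without overexpressing replicate 3, at -2.25, and without control replicate 8, at -1.76. Without overexpressing replicate 1 it was -0.82 and without control replicate 6 -0.87, both inside the limit.

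WNT2 (ENSSSCG00000016628, chromosome 18, 28946497 to 29028107) was the only tested ligand called higher. It had counts of 57 and 57 with overexpressed IRF-1, 1 and 2 without, so that the overexpressing libraries were alike and the controls near 0. The ratio of the pooled counts per library size was 27.4 (95% interval for counting error 9.15 to 135), and the adjusted p was 0.00159 by Benjamini-Hochberg, edgeR quasi-likelihood test. Its exons share 260 bases with ST7 on the opposite strand. WNT11, known mainly for signalling without β-catenin, had counts of 10 and 13 with overexpressed IRF-1, 1 and 0 without, too few to be tested after filtering, and its ratio was 16.6 (95% interval for counting error 2.69 to 683). It was called higher when no filter was used (adjusted p = 0.0346 in edgeR's quasi-likelihood test).

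The other ligands did not pass the test. WNT5A, the ligand best known for signalling through ROR2, had 2.81 and 2.57 TPM with overexpressed IRF-1, 2.38 and 1.68 TPM without, and its log2 fold change was 0.51 (SE 0.31, Benjamini-Hochberg adjusted p = 0.268, edgeR quasi-likelihood test). WNT16 had counts of 33 and 37 with overexpressed IRF-1, 11 and 8 without, and its log2 fold change of 1.41 (SE 0.50, adjusted p = 0.0718, edgeR quasi-likelihood test) missed the threshold although its groups did not overlap. WNT3A and WNT9B had libraries of the groups that overlapped, with log2 fold changes of 0.63 and 0.09. Over the omissions of 1 library WNT3A ran from -0.0017 to 1.63 and WNT9B from -0.049 to 0.25, below 0 without overexpressing replicate 1 for both and without control replicate 6 for WNT9B. WNT2B had between 5 and 17 counts per library and a log2 fold change of -1.39, which ran from -1.99 to -0.87 over such omissions. WNT8A, WNT8B and WNT10A had at most 8 counts in any library and were not tested.

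WNT genes often lie in pairs, and 4 neighbouring pairs with no gene between them are among the ligands. WNT3 and WNT9B, on opposite strands of chromosome 12, are 145 bases apart, and only WNT3 was called lower. WNT9A and WNT3A on chromosome 2 are 25787 bases apart, and only WNT9A was called. WNT6 and WNT10A on chromosome 15 are 8299 bases apart, and WNT10A, with counts of 0 and 2 with overexpressed IRF-1, 4 and 6 without, was not tested. In the pair of WNT10B and WNT1 both were called lower. Whether the genes of a pair differed in their response was not tested.

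**Figure D2:**
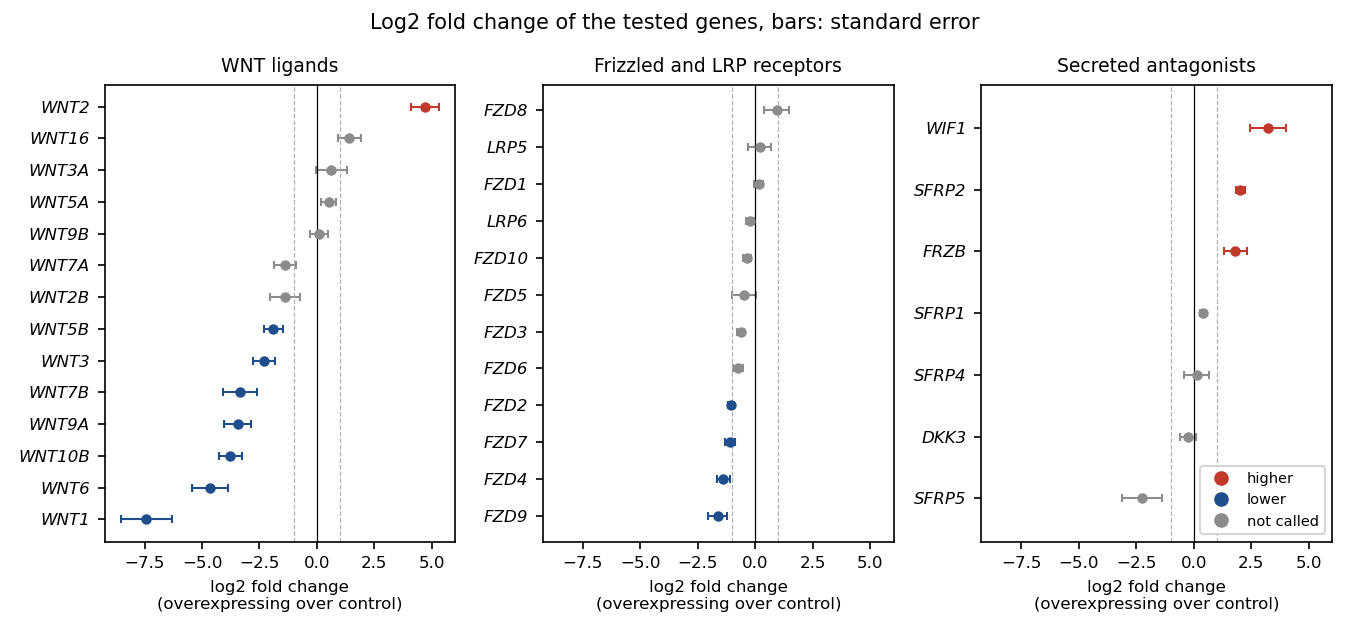
Log2 fold change (IRF-1 overexpressing over control, n = 2 libraries per group) of the 33 tested genes by role, with bars for the standard error and dashed lines at -1 and 1. Red and blue mark genes called higher and lower, which are 1 and 7 ligands, 0 and 4 receptors, and 3 and 0 antagonists, and the fitted value of WNT1 (0 counts in both overexpressing libraries) depends on the prior count.

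The summed receptor level was lower, 4 of the 12 genes were called lower (0 with glmTreat, 1 without overexpressing replicate 1 and 2 without control replicate 6), and all 12 receptor genes were tested, 11 of them through both groups. The ratio of the mean summed TPM was 0.515. FZD2, FZD4, FZD7 and FZD9 were called lower by edgeR and 0 were called higher, against 10.6% and 8.61% of all genes tested. At an unadjusted p under 0.05, 0 receptors were higher, and DESeq2, limma-voom and glmTreat called 0 higher. The median log2 fold change of the 10 Frizzled genes was -0.69, against -0.00 over all genes tested.

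FZD7, FZD2 and FZD10 were the leading receptors in every library. FZD7 (ENSSSCG00000016111, chromosome 15, 105644188 to 105648850), the Frizzled best known from pluripotent stem cells, had 99.7 and 129 TPM with overexpressed IRF-1, 306 and 222 TPM without. Each overexpressing library was below each control. Its log2 fold change of -1.11 (SE 0.21, Benjamini-Hochberg adjusted p = 0.00744, edgeR quasi-likelihood test) lay close to the limit of 1, and it lay inside that limit without overexpressing replicate 1 (-0.93) and without control replicate 6 (-0.80). FZD2 (ENSSSCG00000029838, chromosome 12, 18740653 to 18742350) had 110.2 and 112 TPM with overexpressed IRF-1, 248 and 248 TPM without. The replicates of each group were nearly equal and the groups well apart, with a log2 fold change of -1.05 (SE 0.14, adjusted p = 0.00157, edgeR quasi-likelihood test), which was -0.99 and thus not called without control replicate 6. FZD10 had 91.2 and 123 TPM with overexpressed IRF-1, 131 and 163 TPM without, with a log2 fold change of -0.35 (SE 0.18, adjusted p = 0.182, edgeR quasi-likelihood test), and was not called. Its groups did not overlap but lay close together.

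FZD4 (ENSSSCG00000014920, chromosome 9, 20712717 to 20722403), which binds Norrin as well as WNT proteins, had 10.4 and 21.1 TPM with overexpressed IRF-1, 45.2 and 43.9 TPM without. The controls were nearly equal, and overexpressing replicate 1 was the lowest. For FZD4 the log2 fold change was -1.40 (SE 0.29, Benjamini-Hochberg adjusted p = 0.0104, edgeR quasi-likelihood test), and without overexpressing replicate 1 it was -0.97, inside the limit. FZD9 (ENSSSCG00000023004, chromosome 3, 10754783 to 10757147) was less abundant, with 1.80 and 3.62 TPM with overexpressed IRF-1, 10.01 and 8.02 TPM without. Its groups did not overlap either, and its log2 fold change was -1.64 (SE 0.40, adjusted p = 0.0199, edgeR quasi-likelihood test). It was -1.21 and not called without overexpressing replicate 1 (adjusted p = 0.116, range over all alternatives 0.000266 to 0.188, edgeR).

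FZD6 and FZD3 had an adjusted p under 0.05 but a smaller difference than the limit. FZD6 had 15.6 and 12.5 TPM with overexpressed IRF-1, 26.0 and 25.1 TPM without, a log2 fold change of -0.75 (SE 0.22, Benjamini-Hochberg adjusted p = 0.0340, edgeR quasi-likelihood test). FZD3, known for axon guidance and planar polarity, had 12.3 and 13.3 TPM with overexpressed IRF-1, 19.8 and 23.1 TPM without, a log2 fold change of -0.63 (SE 0.15, adjusted p = 0.0161, edgeR quasi-likelihood test). In both, the overexpressing libraries lay below the controls.

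The co-receptors were not called. LRP6 had 26.8 and 21.5 TPM with overexpressed IRF-1, 26.4 and 34.9 TPM without, a log2 fold change of -0.22 (SE 0.18, Benjamini-Hochberg adjusted p = 0.384, edgeR quasi-likelihood test), and its groups overlapped. LRP5 was scarcer, between 0.788 and 1.68 TPM, and its log2 fold change of 0.19 changed sign without overexpressing replicate 1 (-0.47) and without control replicate 8 (-0.24). FZD1, FZD5 and FZD8 were not called either, with log2 fold changes of 0.14, -0.49 and 0.92. FZD5 was at -1.50 without overexpressing replicate 1 and 0.09 without replicate 3, and FZD8 at 1.59 without control replicate 6 and 0.45 without control replicate 8. FZD8 passed the filter through the overexpressing libraries alone and shares 81 exon bases with an unnamed gene on the same strand.

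Among the antagonists, SFRP2, FRZB and WIF1 were called higher in the IRF-1 overexpressing cells. Summed over the 10 genes, the level was 324 and 288 TPM with overexpressed IRF-1, 242 and 218 TPM without, a ratio of the means of 1.33. SFRP1 alone made up between 76.6% and 87.7% of that sum. Of the 10 genes, 7 were tested. By edgeR 3 were called higher and 0 lower, against 8.61% and 10.6% of all genes tested. At an unadjusted p under 0.05, 4 were higher and 1 lower (SFRP5), a threshold at which the share of all genes was not counted. DESeq2 and limma-voom called 3 higher and 0 lower, and glmTreat 1 higher and 0 lower.

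SFRP1 (ENSSSCG00000025822, chromosome 17, 10436411 to 10489755), a secreted Frizzled-related protein that binds WNT ligands, was the most abundant of all 40 genes by mean TPM. It had 254 and 220.3 TPM with overexpressed IRF-1, 195 and 191 TPM without. The overexpressing libraries were above the controls, but the log2 fold change of 0.41 (SE 0.14, Benjamini-Hochberg adjusted p = 0.0670, edgeR quasi-likelihood test) did not pass the threshold. SFRP2 (ENSSSCG00000009004, chromosome 8, 75337106 to 75347522), of the same family, had 34.8 and 27.8 TPM with overexpressed IRF-1, 8.39 and 8.22 TPM without. The replicates of each group were close together and the groups far apart. The log2 fold change was 2.03 (SE 0.19, adjusted p = 0.000559, edgeR quasi-likelihood test), and omitting any library kept it within 1.86 to 2.19.

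FRZB (ENSSSCG00000016018, chromosome 15, 88332857 to 88377247), also called SFRP3, had 12.9 and 24.1 TPM with overexpressed IRF-1, 8.16 and 3.02 TPM without. The groups did not overlap, but replicates differed within both. The log2 fold change was 1.81 (SE 0.49, Benjamini-Hochberg adjusted p = 0.0280, edgeR quasi-likelihood test). It was 1.31 and not called without overexpressing replicate 3 (adjusted p = 0.108, range over all alternatives 1.25e-06 to 0.188, edgeR) and 2.77 without control replicate 6. WIF1 (ENSSSCG00000030998, chromosome 5, 29450029 to 29543913), which binds WNT proteins through a domain of its own, had counts of 64 and 18 with overexpressed IRF-1, 2 and 4 without. It was low in the controls and uneven between the overexpressing libraries, with a log2 fold change of 3.22 (SE 0.78, adjusted p = 0.0179, edgeR quasi-likelihood test). Without overexpressing replicate 1 the value was 2.23 and the call was lost (adjusted p = 0.187, range over all alternatives 0.000361 to 0.187, edgeR).

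DKK3, the only DKK gene tested, had 17.3 and 13.2 TPM with overexpressed IRF-1, 25.9 and 12.7 TPM without. Its groups overlapped, and its log2 fold change of -0.24 (SE 0.36, Benjamini-Hochberg adjusted p = 0.648, edgeR quasi-likelihood test) became 0.43 without control replicate 6. SFRP4 had libraries that overlapped and a log2 fold change of 0.12, turning to -0.73 without overexpressing replicate 1 and -0.02 without control replicate 8. SFRP5 had counts of 1 and 9 with overexpressed IRF-1, 23 and 13 without, lower in the overexpressing cells by count, but its log2 fold change of -2.26 (SE 0.86, adjusted p = 0.0876, edgeR quasi-likelihood test) missed the threshold. It passed with no filter and without overexpressing replicate 3, at -4.56. The other omissions gave -1.32 (overexpressing replicate 1), -1.70 (control replicate 6) and -2.67 (control replicate 8), none of them called. DKK1, DKK2 and DKK4 had at most 2 counts in any library, so they were not detectable at this depth in either group and no fold is given.

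Of the genes for WNT secretion and release, WLS and NOTUM were called lower, and NOTUM passed the filter through the controls alone. WLS (ENSSSCG00000003795, chromosome 6, 144242634 to 144532892), the carrier that brings WNT proteins to the cell surface, had 166 and 183 CPM with overexpressed IRF-1, 422 and 349 CPM without. Both overexpressing libraries were under both controls, with a log2 fold change of -1.14 (SE 0.15, Benjamini-Hochberg adjusted p = 0.00158, edgeR quasi-likelihood test). PORCN, the acyltransferase that adds the lipid to WNT proteins, had 23.99 and 23.3 CPM with overexpressed IRF-1, 18.2 and 16.2 CPM without, a log2 fold change of 0.46 (SE 0.18, adjusted p = 0.105, edgeR quasi-likelihood test), and was not called. NOTUM, a secreted enzyme that removes the lipid, had counts of 13 and 8 with overexpressed IRF-1, 27 and 29 without. Its log2 fold change of -1.87 (SE 0.48, adjusted p = 0.0230, edgeR quasi-likelihood test) was not called with any library left out, when it ranged from -2.10 to -1.68, nor with DESeq2 (adjusted p = 0.0782, range over all alternatives 0.0163 to 0.166). Of these 3 genes, 2 were called lower and 0 higher by edgeR, against 10.6% and 8.61% of all genes tested. At an unadjusted p under 0.05 PORCN was higher, while DESeq2, limma-voom and glmTreat called 0 higher. WLS shares 140 exon bases with RPE65 on the same strand.

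Among genes that set the amount of Frizzled at the cell surface, LGR5 was higher and RNF43 lower. LGR5 (ENSSSCG00000030511, chromosome 5, 35462254 to 35596150), a receptor for R-spondins and a marker of several adult stem cells, had 27.2 and 18.6 CPM with overexpressed IRF-1, 1.22 and 1.14 CPM without. RNF43 (ENSSSCG00000017640, chromosome 12, 34631674 to 34694784), the ubiquitin ligase that removes Frizzled from the surface, had 3.74 and 4.9996 CPM with overexpressed IRF-1, 39.4 and 34.0 CPM without. The groups were far apart in opposite directions. For LGR5 the log2 fold change was 4.27 (SE 0.32, Benjamini-Hochberg adjusted p = 0.000250, edgeR quasi-likelihood test). For RNF43 it was -3.07 (SE 0.23, adjusted p = 0.000254, edgeR quasi-likelihood test). Of the 7 tested genes of this list of 9, these were the only ones called. Of all genes tested, 8.61% were called higher and 10.6% lower. LGR4, which had the highest CPM of the list, had 122 and 133 CPM with overexpressed IRF-1, 229.5 and 272 CPM without, and a log2 fold change of -0.97 (SE 0.15, adjusted p = 0.00289, edgeR quasi-likelihood test), just inside the limit. It passed that limit and was called without overexpressing replicate 3 (-1.03) or control replicate 6 (-1.09). RSPO2 had counts of 183 and 73 with overexpressed IRF-1, 12 and 41 without and a log2 fold change of 1.79 (SE 0.58, adjusted p = 0.0529, edgeR quasi-likelihood test). RSPO2 was called with DESeq2, with no filter and without overexpressing replicate 3 (2.23) or control replicate 8 (2.83), and was at 1.17 without overexpressing replicate 1 and 1.22 without control replicate 6. ZNRF3, the partner of RNF43, had a log2 fold change of -0.08. The median of the list was -0.79. LGR4, RSPO2 and ZNRF3 were chosen for naming after their values were seen, and LGR6 was not analysed here.

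Of 16 other extracellular modulators and co-receptors, 11 were tested, with a median of -0.17. Of these 11, 1 was called higher and 1 lower, against 8.61% and 10.6% of all genes tested. At an unadjusted p under 0.05, 2 were higher and 5 lower, a threshold at which the share of all genes was not counted. With no fold minimum 1 was called higher and 3 lower, against 1842 and 2054 of all 13250 genes tested. The genes added there are the WNT receptors ROR2 and RYK, named after their values were seen, with log2 fold changes of -0.84 (SE 0.22, adjusted p = 0.0256, edgeR quasi-likelihood test) and -0.64 (SE 0.16, adjusted p = 0.0214, edgeR quasi-likelihood test). ROR2 passed the fold limit without overexpressing replicate 3 (-1.22) and lay at -0.53 without replicate 1. PTK7, a co-receptor in planar polarity, had 93.2 and 117 CPM with overexpressed IRF-1, 293 and 242 CPM without, and its log2 fold change was -1.35 (SE 0.17, Benjamini-Hochberg adjusted p = 0.00147, edgeR quasi-likelihood test). The gene called higher was NDP, which encodes Norrin and was named after its values were seen, and it passed the filter through the overexpressing libraries alone. It had counts of 19 and 18 with overexpressed IRF-1, 1 and 0 without, a ratio of pooled counts of 26.7 (95% interval for counting error 4.50 to 1082). The call was kept only without control replicate 6 when libraries were omitted, and the fitted value, which depends on the prior count, then ran from 3.56 to 7.11. SOST and CER1 had 0 counts in every library.

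Of the 8 genes of the planar cell polarity core, 3 were called higher and 1 lower, against 8.61% and 10.6% of all genes tested. The median of the list was -0.56. At an unadjusted p under 0.05, 3 were higher and 5 lower, again without a count over all genes. With no fold minimum 3 were called higher and 4 lower, against 1842 and 2054 of all 13250 genes tested. The genes added there, named after their values were seen, are VANGL1, VANGL2 and CELSR2, at -0.66, -0.99 and -0.65. VANGL2 was called without overexpressing replicate 3 (-1.19) or control replicate 8 (-1.13). CELSR1 had 43.0 and 80.6 CPM with overexpressed IRF-1, 345 and 309 CPM without, and CELSR3, of the same cadherin family, had 109 and 83.9 CPM with overexpressed IRF-1, 24.9 and 17.8 CPM without. In both overexpressing libraries CELSR1 was lower and CELSR3 higher than in either control. For CELSR1 the log2 fold change was -2.40 (SE 0.28, Benjamini-Hochberg adjusted p = 0.00102, edgeR quasi-likelihood test). For CELSR3 it was 2.17 (SE 0.21, adjusted p = 0.000628, edgeR quasi-likelihood test). PRICKLE1 had 6.40 and 5.77 CPM with overexpressed IRF-1, 3.14 and 2.69 CPM without, and PRICKLE2 had 25.3 and 18.0 CPM with overexpressed IRF-1, 10.8 and 10.6 CPM without. Both encode cytoplasmic polarity proteins and had log2 fold changes of 1.06 and 1.01, at the limit. Without overexpressing replicate 1 they were 1.00 and 0.76 and were not called, and PRICKLE1 was not called without overexpressing replicate 3 (1.14) or control replicate 8 (0.96) either.

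Of 20 tested genes among 23 of the β-catenin machinery inside the cell, 2 were called higher and 2 lower. The shares over all genes tested were 8.61% and 10.6%, and the median of the list was 0.02. At an unadjusted p under 0.05, 5 were higher and 4 lower, again without a count over all genes. With no fold minimum 4 were called higher and 3 lower, against 1842 and 2054 of all 13250 genes tested. The genes added there, named after their values were seen, are APC2, AXIN1 and TCF7L2, at 0.87, -0.61 and 0.64. CTNNB1, which encodes β-catenin, had 767 and 786 CPM with overexpressed IRF-1, 688 and 658 CPM without, a log2 fold change of 0.21 (SE 0.12, Benjamini-Hochberg adjusted p = 0.241, edgeR quasi-likelihood test). GSK3B, the kinase gene, had 138 and 127 CPM with overexpressed IRF-1, 128 and 124 CPM without, a log2 fold change of 0.07 (SE 0.14, adjusted p = 0.718, edgeR quasi-likelihood test). Neither was called. Of the TCF and LEF factors tested, LEF1 was called higher, TCF7 lower and TCF7L2 in neither direction. LEF1 had 35.0 and 25.7 CPM with overexpressed IRF-1, 12.4 and 10.9 CPM without, a log2 fold change of 1.38 (SE 0.22, adjusted p = 0.00361, edgeR quasi-likelihood test). TCF7 had 1.05 and 2.45 CPM with overexpressed IRF-1, 5.63 and 5.20 CPM without, a log2 fold change of -1.64 (SE 0.45, adjusted p = 0.0305, edgeR quasi-likelihood test). TCF7L2, named after its values were seen, had a log2 fold change of 0.64 (SE 0.17, adjusted p = 0.0263, edgeR quasi-likelihood test), inside the limit. In each of LEF1, TCF7 and TCF7L2 the groups did not overlap, but the share of all genes for which this holds was not counted. The TCF7 value was -1.13 and not called without overexpressing replicate 1 (adjusted p = 0.175, range over all alternatives 0.00127 to 0.245, edgeR), and -2.36 without overexpressing replicate 3. TLE1, a co-repressor of these factors, had 101 and 88.2 CPM with overexpressed IRF-1, 23.0 and 30.5 CPM without, a log2 fold change of 1.82 (SE 0.18, adjusted p = 0.000655, edgeR quasi-likelihood test). BCL9L, a co-activator of β-catenin, had 16.3 and 15.7 CPM with overexpressed IRF-1, 42.2 and 41.0 CPM without, a log2 fold change of -1.38 (SE 0.17, adjusted p = 0.00115, edgeR quasi-likelihood test), and shares 1008 exon bases with CXCR5 on the opposite strand. TCF7L1 and PYGO2 were not analysed here.

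More β-catenin target and feedback genes were called lower than higher. Of 13 tested genes among 17, 8 were called lower and 2 higher, against 10.6% and 8.61% of all genes tested. The median log2 fold change of the list was -1.69. NOTUM, 1 of the 8, passed the filter through the controls alone. Fewer of the list were called lower when overexpressing replicate 1 was omitted, as was true over all genes tested. With glmTreat 3 were called lower and 1 higher, against 603 and 611 of all 13250 genes tested. Of the 17, 7 also belong to another of the lists, among them LEF1, TCF7, RNF43, LGR5 and NOTUM. AXIN2 (ENSSSCG00000017265, chromosome 12, 12311298 to 12343200), a feedback inhibitor and the most widely used readout of the β-catenin branch, had 26.5 and 38.7 CPM with overexpressed IRF-1, 115 and 95.4 CPM without. Both overexpressing libraries were well below both controls. Its log2 fold change was -1.69 (SE 0.21, Benjamini-Hochberg adjusted p = 0.00126, edgeR quasi-likelihood test), and omitting any library kept it within -1.98 to -1.43. NKD1, an inhibitor of Dishevelled, had counts of 25 and 19 with overexpressed IRF-1, 75 and 57 without, a log2 fold change of -2.06 (SE 0.42, adjusted p = 0.00911, edgeR quasi-likelihood test), which was -2.12 and not called without overexpressing replicate 1 (adjusted p = 0.0523, range over all alternatives 0.000268 to 0.0617, edgeR). MYC had counts of 27 and 39 with overexpressed IRF-1, 152 and 72 without, a log2 fold change of -2.23 (SE 0.51, adjusted p = 0.0151, edgeR quasi-likelihood test). It was -1.86 without overexpressing replicate 1 and -1.48 without control replicate 6, not called in either case. The cells carry MYC among the reprogramming factors, and transcripts of the vector were not separated from those of the pig gene. SP5 and TNFRSF19, named after their values were seen, completed the genes called lower, with log2 fold changes of -1.70 and -1.73. The SP5 call ended with glmTreat and without overexpressing replicate 1 (-1.39), and the TNFRSF19 call was kept in each alternative. CCND1 had the highest mean CPM of the list, at 148 and 125 CPM with overexpressed IRF-1, 139 and 55.3 CPM without. Its groups overlapped, with control replicate 6 well above control replicate 8. The CCND1 log2 fold change of 0.49 (SE 0.36, adjusted p = 0.350, edgeR quasi-likelihood test) did not pass the threshold. TBXT had at most 1 count and CDX2 had 0 counts in every library.

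**Figure D3:**
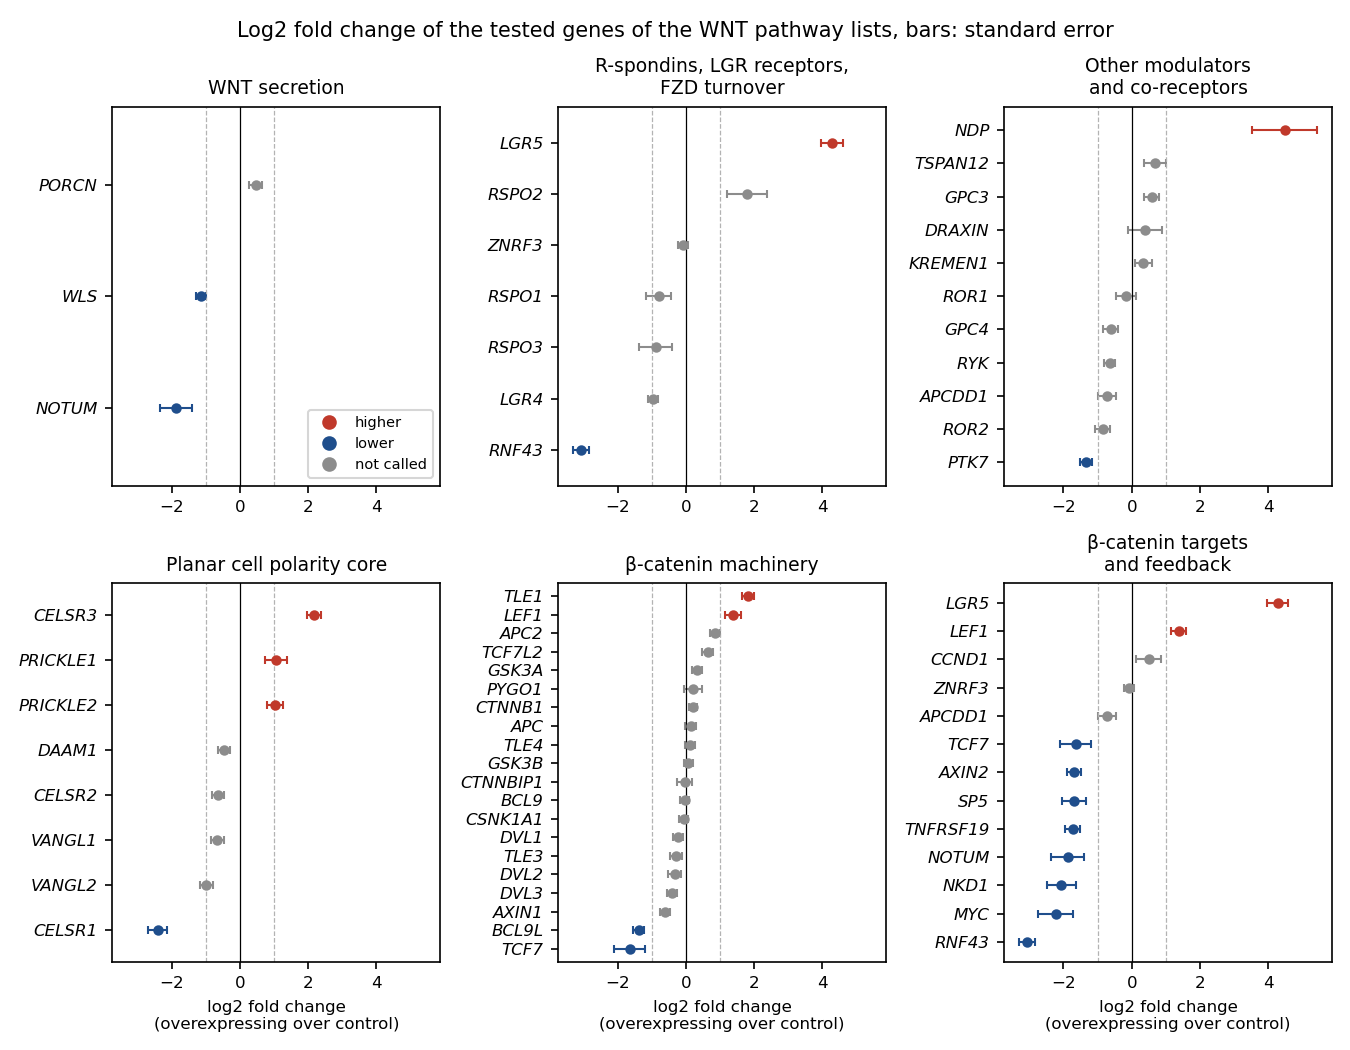
Log2 fold change (IRF-1 overexpressing over control, n = 2 libraries per group) of the tested genes in the 6 WNT pathway lists, with bars for the standard error and dashed lines at -1 and 1. Red and blue mark genes called higher and lower, and in the list of β-catenin targets 8 genes lie at or below -1.64; a gene that belongs to 2 lists is drawn in both.

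Markers of cell states also differed between the groups, and in bulk samples fewer cells of a type and less RNA per cell cannot be told apart. The share to set beside each marker count below is that of all genes tested, 8.61% called higher and 10.6% lower. For trophectoderm and simple epithelium, 5 of 9 genes were tested, KRT8, KRT18 and TFAP2C were called lower, and GATA2 and GATA3, at -0.05 and 0.07, were called in neither direction and changed sign with the library omitted. The summed level of that list was 279 and 1114 CPM with overexpressed IRF-1, 15595 and 9550.0 CPM without. KRT8 had the highest CPM, at 250.1 and 1014 against 12015 and 7489 CPM, and the defining trophectoderm markers CDX2 and HAND1 had 0 counts in every library.

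For neural cells, 9 of 11 markers were tested. Of these, 6 were called higher (NEUROG1, ISL1, ONECUT1, TUBB3, ELAVL3 and STMN2) and 1 lower (NES), against 8.61% and 10.6% of all genes tested. NEUROG1 passed the filter through the overexpressing libraries alone. With glmTreat the calls of ELAVL3 and STMN2 ended, and that of ELAVL3 also without overexpressing replicate 1 (0.82). DCX, at 1.56, was not called, but was with no filter and without overexpressing replicate 3 (2.17), and lay at 0.50 without replicate 1. Their summed level was 775 and 341 CPM with overexpressed IRF-1, 205 and 165 CPM without, with STMN2 as the gene of highest mean CPM, at 327 and 155 against 72.8 and 76.3 CPM. NEUROD1 was at 0 in 3 of the libraries. PAX6 had counts of 12 and 3 with overexpressed IRF-1, 11 and 17 without, and was not called, with a log2 fold change of -1.37. Among the fibroblast markers, 6 of 11 were tested, of which COL1A2 was called higher and COL1A1, DCN and PDGFRB lower, DCN having passed through the controls alone. The COL1A2 call ended with glmTreat and without overexpressing replicate 1 (0.65) or control replicate 8 (0.78), and the DCN call without overexpressing replicate 3. The summed level was 1179 and 944 CPM with overexpressed IRF-1, 1309.9 and 1178 CPM without, of which VIM made up between 84.3% and 91.1%, at 1035 and 855 against 1105 and 1073 CPM, and LUM had at most 3 counts.

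The pluripotency markers bear on the label of the cells. Of 12 such genes, 6 were found by name, and POU5F1, SOX2, SALL4, ZFP42, DPPA3 and TDGF1 were not analysed here. NANOG had counts of 8 and 11 with overexpressed IRF-1, 5 and 9 without, near the floor in both groups. Of the 6 genes, 5 were tested, and LIN28A, ESRRB and CDH1 were called lower (LIN28A not with glmTreat). DNMT3B and EPCAM, with log2 fold changes of 0.27 and 0.21, were called in neither direction. DNMT3B had the highest CPM, at 1035 and 1006 against 694 and 997 CPM. The summed level of the 6 genes was 1234 and 1277 CPM with overexpressed IRF-1, 1480.2 and 1642 CPM without. For mesoderm and primitive streak, 2 of 7 genes were tested and 0 were called by edgeR, DESeq2 or limma-voom (1, MESP1, was lower at an unadjusted p under 0.05, and was called by edgeR with the filter of 1 CPM in 2 libraries). Their summed level was 6.64 and 7.40 CPM with overexpressed IRF-1, 11.6 and 10.1 CPM without, mostly TBX6, at 5.31 and 6.11 against 8.83 and 6.80 CPM, and MIXL1 and MSGN1 had 0 counts in every library. For endoderm, only GATA6 of 6 genes was tested, and it was not called by edgeR, DESeq2 or limma-voom nor at an unadjusted p under 0.05. It made up nearly all of the summed level of 37.9 and 57.9 CPM with overexpressed IRF-1, 45.7 and 42.9 CPM without, at 37.8 and 57.7 against 45.3 and 42.7 CPM, and FOXA2 and AFP had 0 counts in every library. The part of any of these cell states in the differences among WNT genes was not tested.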

How the data were processed

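Per the study's methods and the submitters' processing notes, reads of oligo(dT) libraries were filtered with trim_galore, mapped to Sscrofa11.1 with HISAT2 2.0.4 and assigned to Ensembl genes with featureCounts 1.6.4. The authors deposited raw counts per gene and library, not normalized or pooled, with the exon length of each gene. Which annotation release and strand setting were used, and how multi-mapped reads were handled, is not given in the sources used here.

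Symbols came from a reference table of gene names, which matched 14692 of 24358 identifiers. The groups follow the replicate numbers in the sample titles, as above. Chi-square per degree of freedom between replicates was 17.9 (overexpressing) and 31.3 (control), above the 1 of repeated sequencing, so each was taken as its own library. Under R 4.3.3, edgeR 4.0.16 scaled the libraries (TMM factors 0.982 to 1.02), filtered genes with filterByExpr given the groups, and ran its quasi-likelihood test, with p adjusted by Benjamini-Hochberg over the 13250 genes left. The standard error is the size of the log2 fold change divided by the square root of F. Intervals of count ratios are exact binomial and, like the floors, cover counting error only. Python 3.11.15 (pandas 2.3.3, matplotlib 3.10.9) made tables and figures.

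The genes and lists were chosen with earlier results of these data known. By rule, values in every library are given for each of the 40 genes that was called and for the leading genes of each class. Of the pathway genes, CTNNB1, GSK3B, AXIN2, LEF1, TCF7, TCF7L1, PORCN and WLS were named whatever their values, with up to 4 called genes per list that had the largest fold change, a mean of at least 1 CPM and groups that did not overlap. Alternatives were other scalings (upper quartile, library totals, DESeq2-type size factors), no filter, a filter of 1 CPM in 2 libraries, DESeq2 1.42.0, limma-voom (limma 3.58.1), glmTreat, no fold minimum, omission of any 1 library, and removal of 37 mitochondrial genes with the 10 genes highest in counts.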

Additional observations from a re-analysis of the deposited data

How the results depend on the processing

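Among the 40 genes and the pathway lists, the counts of called genes were the same with the other scalings and without mitochondrial and top genes. With glmTreat, which tests the fold change against the limit, 2 of the 40 genes were called higher and 5 lower, with 0 receptors lower, 1 antagonist higher, 0 secretion genes, 1 of the other modulators, 2 polarity genes, 1 gene of the β-catenin machinery and 4 of its target genes called. With no fold minimum, 4 other modulators, 7 polarity genes and 7 genes of the machinery were called. With no filter, 2 ligands were called higher and 1 antagonist lower. With a filter of 1 CPM in 2 libraries, the called genes no longer tested were WNT1, WIF1 and NDP. That left 3 of the 40 genes called higher and 10 lower, with 6 ligands lower, 2 antagonists higher and 1 other modulator called. With DESeq2, 1 secretion gene was called. The cause was not tested for any of these.

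When a library was left out, the lone library of its group was assumed to vary like the other group. The number of calls over all genes also changed with the library left out, so the counts here are a description. Of the 40 genes, between 6 (without overexpressing replicate 1) and 13 were then called lower and 3 to 4 higher, with 5 to 8 ligands lower and 2 to 3 antagonists higher. Between 1 and 4 receptors were lower and between 0 and 1 antagonists were lower. Among the lists, 1 secretion gene was called whichever library was left out, 2 to 4 genes of the R-spondin list, 1 to 2 other modulators, 2 to 4 polarity genes and 5 to 9 target genes. The ratio of summed TPM stayed between 0.260 and 0.383 for ligands, 0.475 and 0.556 for receptors and 1.25 and 1.41 for antagonists.

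Among the 40 genes, the sign reversed for 6 that were not called. With limma-voom, SFRP4 was at -0.012. Without overexpressing replicate 1, LRP5 was at -0.47, SFRP4 at -0.73, WNT3A at -0.0017 and WNT9B at -0.024. Without overexpressing replicate 3, FZD5 was at 0.094. Without control replicate 6, DKK3 was at 0.43 and WNT9B at -0.049. Without control replicate 8, LRP5 was at -0.24 and SFRP4 at -0.017. Over the 4 omissions the log2 fold change ranged from -0.70 to 0.43 for DKK3, -1.50 to 0.094 for FZD5, -0.47 to 0.79 for LRP5, -0.73 to 0.64 for SFRP4, -0.0017 to 1.63 for WNT3A and -0.049 to 0.25 for WNT9B. The cause was not tested.

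No paired analysis was possible because the groups share no replicate numbers. The overexpressing libraries had more counts than the controls, and at 3 counts the floor was 0.120 to 0.188 CPM. Of the 7 untested genes, the counts of WNT8A, WNT8B, WNT10A, DKK1, DKK2 and DKK4 allow little to be said of them. WNT11, also untested, had counts of 10 and 13 with overexpressed IRF-1, 1 and 0 without, and was called higher when no filter was used. TPM depends on the exon lengths in the table, with 621 bases for WNT1. Overlapping exons, an unstated strand setting and 2 libraries per group limit the values of single genes.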
